A study of Meleagris gallopavo with 18 samples.

Results

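Expression of 4 genes of the epithelial cytoskeleton and of cell adhesion was compared between testis, epididymis and ductus deferens of the turkey. They were KRT19 (MSTRG.29734), SPTBN1 (MSTRG.19745), ARPC5 (MSTRG.10031) and CDH20 (MSTRG.30763), 4 of the 56037 genes in the deposited table of counts. They were chosen by name as an epithelial keratin, a spectrin of the membrane skeleton, a subunit of the actin nucleation machinery and a cadherin. The gene symbols were those the study gives beside these identifiers in its tables of relations between long non-coding RNAs and genes, which list genes it had called changed between the same tissues, so that a count of changed genes among them is not independent evidence. The series was made to profile the tissues for genes that set parts of the male reproductive tract apart, and the study examined long non-coding RNAs in them. Whole tissues of 6 turkeys (birds 2, 11, 12, 14, 15 and 16), aged 38 weeks and under photostimulation from 26 weeks, gave 18 libraries, 1 for each tissue of a bird. All birds had the same treatment, and the 3 groups differ only in the tissue.

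Keratins such as KRT19, which is known from mammals as a marker of simple and ductal epithelia, form the intermediate filaments that give epithelial sheets their mechanical strength. Spectrins line the inner face of the plasma membrane, where SPTBN1, a beta chain found outside red blood cells, links actin filaments to membrane proteins. ARPC5 is a subunit of the Arp2/3 complex, which starts new actin branches from existing filaments. CDH20 belongs to the type II cadherins, calcium-dependent adhesion molecules that hold like cells together. The sperm ducts are lined by an epithelium wrapped in smooth muscle, whereas the testis is filled mostly with germ cells.

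The libraries held between 64143451 and 118625345 counts. The epididymis of bird 12 stood apart, with 17596 genes with at least 1 count against 27459 to 34711 in the other 5 epididymis libraries, so results that rest on it are given with and without it. The 5 measured germ cell markers of 11 listed summed to between 461 and 869 CPM (counts scaled to the library size with the trimmed mean of M values, TMM) in the testis, to between 26.2 and 72.1 CPM in the epididymis and to between 4.81 and 14.1 CPM in the ductus deferens. These markers did not fall alike. In testis and epididymis MAK averaged 41.5 and 25.6 CPM, HORMAD1 371 and 9.16 CPM, and MEIOC 85.9 and 0.807 CPM. SLC26A8 (28.3 and 7.04 CPM) and PCSK4 (65.7 and 11.9 CPM) lay between these in their fall. The 5 measured markers of multiciliated cells of 6 listed summed to 766 CPM in the epididymis of bird 12 and to between 307 and 513 CPM in the other 5, while the 2 measured markers of absorptive cells of 3 listed summed to 314 CPM there and to between 382 and 781 CPM in the other 5. The absorptive markers summed to at most 20.6 CPM in testis and 4.54 CPM in ductus deferens libraries, and the multiciliated markers to between 220 and 476 CPM (testis) and to between 17.0 and 31.3 CPM (ductus deferens). Members of the multiciliated list did not move together. In the epididymis of bird 12, CCNO, DNAH5 and RSPH9 were the highest of the tissue (72.0, 407 and 183 CPM). DNAI1 and CCDC40 were the lowest of the tissue there (13.2 and 91.4 CPM). In the testis CCDC40, DNAI1 and RSPH9 averaged 253, 46.4 and 40.3 CPM, whereas CCNO and DNAH5 averaged 0.619 and 1.19 CPM. CSRP1, a LIM domain protein and the 1 measured of 8 listed markers of smooth muscle and stroma, had medians of 179, 1358 and 3936 CPM in testis, epididymis and ductus deferens. The part of these cell types in the differences between tissues was not tested. In whole tissue, fewer cells of a type and less RNA per cell cannot be told apart. A gene was called changed with an adjusted p under 0.01 in the quasi-likelihood test of edgeR, with Benjamini-Hochberg adjustment over all genes tested, and a log2 fold change beyond 1.

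KRT19 was highest in the ductus deferens. It ranged from 11.0 to 26.5 CPM in the testis with a median of 13.5, from 8.49 to 50.9 CPM in the epididymis with a median of 18.2, and from 89.96 to 1039 CPM in the ductus deferens with a median of 538. Every ductus deferens library was above every testis and every epididymis library, while the testis and the epididymis overlapped. The log2 fold change was 5.19 ± 0.48 (SE, n = 6 birds) for the ductus deferens over the testis (edgeR, adjusted p = 1.51e-06) and 4.76 ± 0.57 for the ductus deferens over the epididymis (edgeR, adjusted p = 0.000115), and the gene was higher in the ductus deferens in 6 of 6 birds in both. The latter change lay above 99.99% of the genes tested. Between the epididymis and the testis the log2 fold change was 0.53 ± 0.41 (edgeR, adjusted p = 0.298) with a 95% interval from -0.39 to 1.45, and 4 of 6 birds were higher in the epididymis. Without the epididymis of bird 12 the log2 fold change of KRT19 was 4.96 ± 0.62 for the ductus deferens over the epididymis and 0.35 ± 0.38 for the epididymis over the testis.

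The ductus deferens of bird 12 was the low library of KRT19, with 89.96 CPM against 506 to 1039 CPM in the other 5. Without it the mean of the ductus deferens was 668 ± 224 CPM (SD, n = 5), against 571 ± 309 CPM (SD, n = 6) with it. The same library was also lowest of its tissue in CSRP1, with 1630 CPM against 3377 to 4353 CPM in the other 5. Among genes described below, CORO1C was lowest there too (749 CPM), whereas LAD1 (405 CPM) was above the median of its tissue (367 CPM). SPTBN1 (305 CPM) and ARPC5 (177 CPM) lay within the range of the other 5. The part of tissue composition in the low value of KRT19 was not tested. Bird 11 had the highest KRT19 of the testis (26.5 CPM) and of the epididymis (50.9 CPM), and the second highest of the ductus deferens (716 CPM). Without bird 11 the testis libraries lay between 11.0 and 13.8 CPM. The distance of bird 11 from bird 12 in the testis rests on the normalization. Bird 11 had 1812 KRT19 counts of 81438457 there with a TMM factor of 0.841, and bird 12 had 2042 of 92781880 with a factor of 1.73.

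SPTBN1 was higher in both ducts than in the testis. It ranged from 23.7 to 92.1 CPM in the testis with a median of 52.9, from 73.9 to 603 CPM in the epididymis with a median of 389, and from 193 to 416 CPM in the ductus deferens with a median of 346. All ductus deferens libraries were above all testis libraries, and so were all epididymis libraries but that of bird 12, which lay within the range of the testis. The log2 fold change over the testis was 2.68 ± 0.45 in the epididymis (edgeR, adjusted p = 0.000254) and 2.54 ± 0.34 in the ductus deferens (edgeR, adjusted p = 2.59e-05), with 6 of 6 birds higher in each. Without the epididymis of bird 12 the first of these was 2.88 ± 0.33 (edgeR, adjusted p = 1.18e-05), and the mean of the epididymis was 438 ± 94.0 CPM (SD, n = 5) against 377 ± 171 CPM (SD, n = 6). The ducts did not differ beyond their spread, with a log2 fold change of -0.04 ± 0.33 (edgeR, adjusted p = 0.971) and a 95% interval from -0.78 to 0.69, or -0.23 ± 0.19 without the epididymis of bird 12.

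ARPC5 was also higher in both ducts than in the testis, with the smallest of the called changes. It ranged from 33.6 to 75.04 CPM in the testis with a median of 51.7, from 137 to 283 CPM in the epididymis with a median of 201, and from 151 to 297 CPM in the ductus deferens with a median of 228. Every duct library was above every testis library, and the ducts overlapped. The log2 fold change over the testis was 1.87 ± 0.27 in the epididymis (edgeR, adjusted p = 8.19e-05) and 2.03 ± 0.23 in the ductus deferens (edgeR, adjusted p = 7.24e-06), with 6 of 6 birds higher in each. Between the ducts it was 0.21 ± 0.24 (edgeR, adjusted p = 0.723) with a 95% interval from -0.33 to 0.75. The epididymis of bird 12, the lowest of its tissue in SPTBN1 and in CDH20, was the highest in ARPC5, and without it the log2 fold change was 1.69 ± 0.22 for the epididymis over the testis (edgeR, adjusted p = 3.07e-05) and 0.46 ± 0.17 between the ducts (edgeR, adjusted p = 0.0886).

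CDH20 was highest in the epididymis. It ranged from 1.60 to 5.40 CPM in the testis with a median of 2.503, from 13.5 to 81.3 CPM in the epididymis with a median of 46.6, and from 0.768 to 6.09 CPM in the ductus deferens with a median of 2.24. Every epididymis library, that of bird 12 at 13.5 CPM included, was above every library of the other tissues, which overlapped each other. The log2 fold change was 3.93 ± 0.47 for the epididymis over the testis (edgeR, adjusted p = 2.17e-05) and -3.93 ± 0.52 for the ductus deferens over the epididymis (edgeR, adjusted p = 0.000248), with the same direction in 6 of 6 birds. For the ductus deferens over the testis it was -0.09 ± 0.53 (edgeR, adjusted p = 0.892) with a 95% interval from -1.27 to 1.08, and 3 of 6 birds were higher in each tissue. Without the epididymis of bird 12 the first and the second change were 4.11 ± 0.37 and -4.09 ± 0.47. Between 53 and 545 counts stood behind each value of the testis and the ductus deferens, whereas 3 counts correspond to at most 0.0676 CPM in any library.

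**Figure D1:**
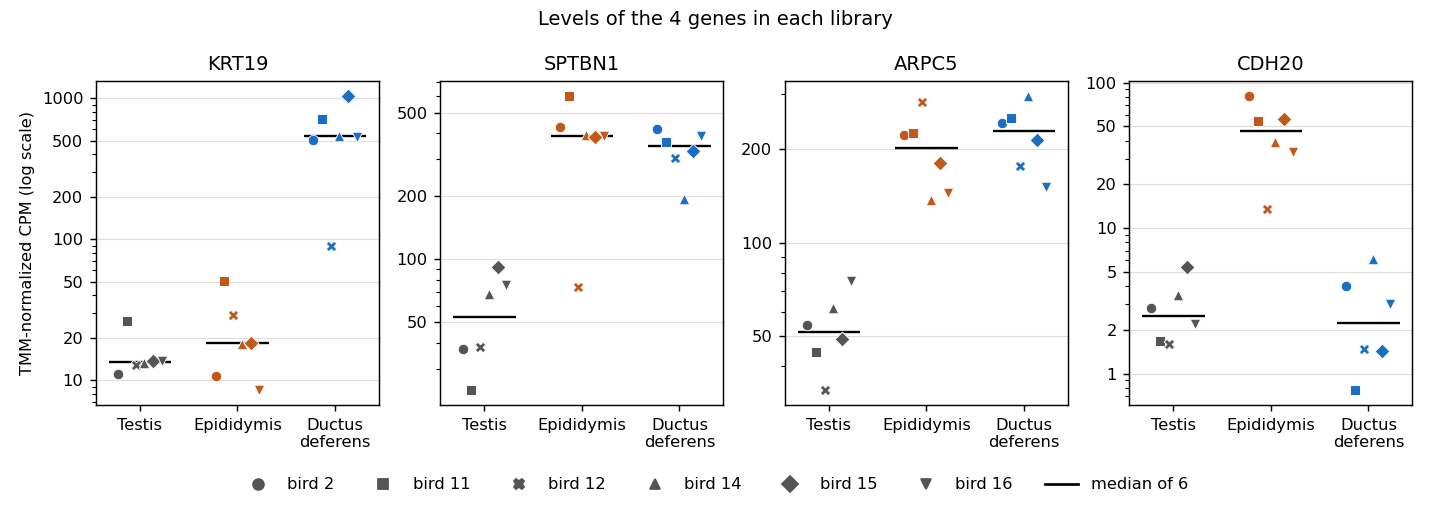
TMM-normalized CPM (log scale) of the 4 genes in each of the 18 libraries, by tissue, with 1 symbol per bird and a line at the median of 6. KRT19 was highest in the ductus deferens (89.96 to 1039 CPM) and CDH20 in the epididymis (13.5 to 81.3 CPM), whereas SPTBN1 and ARPC5 were high in both ducts, with the epididymis of bird 12 low in SPTBN1 (73.9 CPM).

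**Figure D2:**
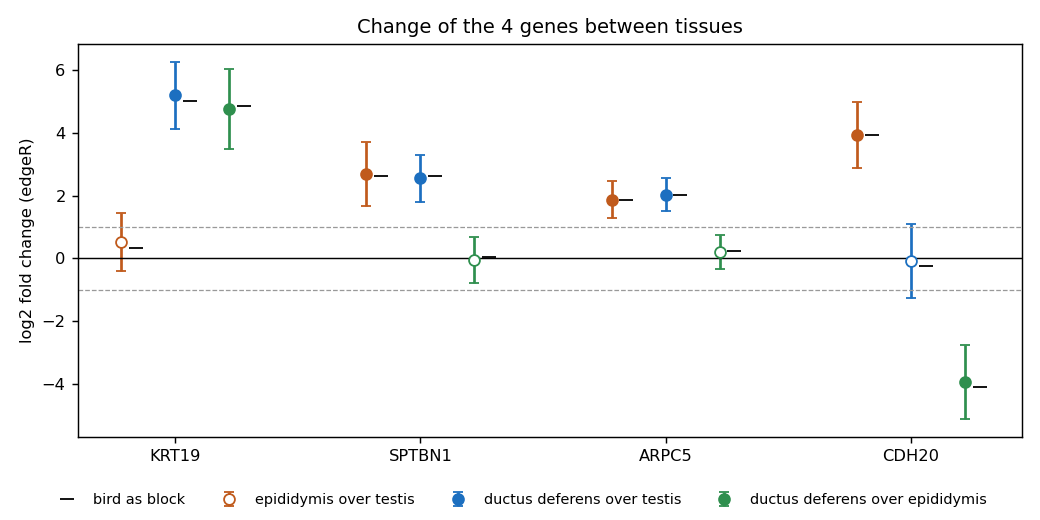
log2 fold changes of the 4 genes (edgeR) in the 3 comparisons, with 95% intervals. Filled points were called, open points were not, dashed lines mark a log2 fold change of 1 in either direction, and black dashes give the value with the bird as a block. The values run from 5.19 for KRT19 in the ductus deferens over the testis to -3.93 for CDH20 in the ductus deferens over the epididymis.

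Among the 4 genes, 3 were called higher in the epididymis than the testis, where 35.9% of all 28489 genes tested were called, 12.9% as higher and 23% as lower. In the ductus deferens over the testis 3 were called higher, where 45.3% of 27550 genes were called, 14.9% as higher and 30.4% as lower. In the ductus deferens over the epididymis, where 5.34% of 22695 genes were called, KRT19 was called higher (background 1.12%) and CDH20 lower (background 4.22%). The comparisons share libraries, so their calls are not independent of each other. The bird as a block kept the calls of the 4 genes, while the number of genes called over the whole table fell from 10237 to 6262 for the epididymis over the testis and from 1211 to 626 for the ductus deferens over the epididymis. Libraries of the compared tissues did not overlap in 2 of 4 genes for the epididymis over the testis, in 3 of 4 for the ductus deferens over the testis and in 2 of 4 for the ductus deferens over the epididymis, against 38.6%, 47.7% and 9.14% of genes with a mean of at least 1 CPM in either tissue. The median log2 fold change over all genes was -0.30, -0.59 and -0.05 in the same order.

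A further 9 genes of the cytoskeleton, its regulation and cell adhesion could be paired with identifiers, again through the tables of the study, and stand beside the 4 genes. Those tables list genes the study had called changed between the same tissues, so counts of calls among the 9 genes are not independent evidence. For the epididymis over the testis 8 of 9 were called higher and 1 lower, with a median log2 fold change of 2.34. Over all genes tested 12.9% were called higher and 23% lower (median -0.30). For the ductus deferens over the testis 6 of 9 were called higher, 2 lower and 1 was not called (median 2.24), against 14.9% higher and 30.4% lower over all (median -0.59). For the ductus deferens over the epididymis 1 was called higher, 2 lower and 6 were not called (median 0.33). The shares over all genes were 1.12% higher and 4.22% lower (median -0.05). CSRP1, among the genes not called there, was close to the threshold (1.46 ± 0.33, edgeR, adjusted p = 0.0109). Some calls of this comparison changed in refits. CSRP1 was called higher with library size alone, DESeq2, limma or no filter, and without bird 12 or only its epididymis. CORO1C was not called without bird 2, 14, 15 or 16 (edgeR, adjusted p = 0.0128, 0.0101, 0.0152 and 0.0109). Without the epididymis of bird 12, LAD1 was called higher (edgeR, adjusted p = 0.00951). IVNS1ABP, another of the 9 genes, was called lower without that library (edgeR, adjusted p = 0.000692). The cadherin-related genes CDHR2 and CDHR3 shared the high epididymis of CDH20, but CDHR3 did so in 5 of 6 birds. In the epididymis of bird 12 CDHR3 was at 3.04 CPM, within the range of the testis (1.40 to 4.07 CPM). Its log2 fold change for the epididymis over the testis was 3.43 ± 0.57 (edgeR, adjusted p = 0.000228), and 3.15 to 3.73 with a bird or that library left out. CDHR2, a component of the adhesion links between microvilli, averaged 260 ± 125 CPM in the epididymis, 9.04 ± 7.33 CPM in testis and 16.1 ± 11.3 CPM in ductus deferens libraries (SD, n = 6), and its log2 fold change for the ductus deferens over the epididymis was -3.91 ± 0.57 (edgeR, adjusted p = 0.000481). CDHR3, a cadherin known from ciliated airway cells in humans, had a change of -6.57 ± 0.77 (edgeR, adjusted p = 9.08e-05) there, and was also called lower in the ductus deferens than in the testis (-3.23 ± 0.64, edgeR, adjusted p = 0.000591), which CDH20 was not.

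None of the 9 genes had the pattern of KRT19, with a call for the ductus deferens over both other tissues and none between these. LAD1, which codes for ladinin, a protein of the basement membrane zone, averaged 356 ± 124 CPM in the ductus deferens and 190 ± 77.1 CPM in the epididymis, where its log2 fold change over the testis was 5.14 ± 0.44 (edgeR, adjusted p = 1.43e-06). RHOA, a small GTPase that organises actin bundles, had 1.97 ± 0.32 for the epididymis and 2.24 ± 0.31 for the ductus deferens over the testis (edgeR, adjusted p = 0.000217 and 3.45e-05), a pattern like that of ARPC5. CORO1C, a coronin that binds actin and the Arp2/3 complex, rose further in the ductus deferens, by 1.45 ± 0.25 over the epididymis (edgeR, adjusted p = 0.00172), a call that was lost with the bird as a block (edgeR, adjusted p = 0.0137). SEPT4, a septin of the sperm tail, was the gene called lower in the epididymis than the testis (-6.01 ± 0.84, edgeR, adjusted p = 7.10e-05).

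**Figure D3:**
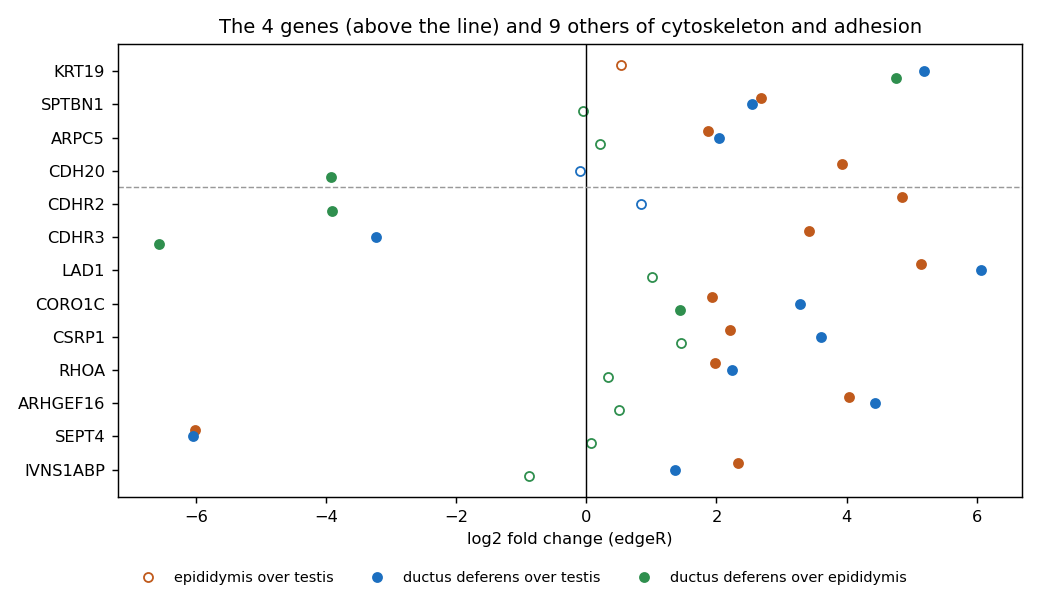
log2 fold changes (edgeR) of the 4 genes, above the dashed line, and of 9 other genes of cytoskeleton and adhesion in the 3 comparisons, with filled points for called values. Of the 9 genes, which were named through the study's lists of changed genes, 8 were called higher in the epididymis than the testis, against 12.9% of all genes tested. CDHR2 and CDHR3 were called lower in the ductus deferens than in the epididymis, as CDH20 was.

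The order of the 4 genes within a tissue is given by CPM, which is not corrected for transcript length and so does not rank their molar levels. By mean CPM the order was SPTBN1, ARPC5, KRT19 and CDH20 in the testis, SPTBN1, ARPC5, CDH20 and KRT19 in the epididymis, and KRT19, SPTBN1, ARPC5 and CDH20 in the ductus deferens. This order held in 4 of 6 testis, 5 of 6 epididymis and 4 of 6 ductus deferens libraries. In the testis SPTBN1 (55.7 ± 26.6 CPM) and ARPC5 (53.0 ± 14.4 CPM) differed by less than their spread. The exceptions were the testis of birds 2 and 11, the epididymis of bird 12, in which ARPC5 led and CDH20 was last, and the ductus deferens of birds 12 and 14. In the ductus deferens of bird 12 KRT19 ranked 3 instead of 1.

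The change of the ratio of 2 genes within a library was tested between tissues. Such a ratio keeps its length factor only if each gene keeps the same shares of its transcripts. In testis, epididymis and ductus deferens, MSTRG.19745.1 averaged 49.0%, 82.6% and 98.6% of the SPTBN1 counts. MSTRG.30763.3 averaged 66.7%, 15.8% and 85.6% of the CDH20 counts in the same order. Changes of ratios with SPTBN1 or CDH20 may therefore include a change of transcript length, which was not tested. The same limit applies to KRT19 in the epididymis of bird 16, where MSTRG.29734.2 held 80.1% of its counts. KRT19 over CDH20 averaged 5.59 in testis, 0.467 in epididymis and 209 in ductus deferens libraries (geometric means of 6 libraries), and no tissue overlapped another. The log2 ratio changed by -3.58 from the testis to the epididymis and by 8.80 from the epididymis to the ductus deferens, each with p = 0.00216 in the two-sided exact permutation test, the smallest that 6 against 6 libraries allow. KRT19 over ARPC5 fell by 1.53 on the log2 scale from the testis to the epididymis (exact permutation p = 0.00866), in 6 of 6 birds, although KRT19 itself was not called there. SPTBN1 over CDH20 fell by 1.28 (exact permutation p = 0.00216) from the testis to the epididymis.

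SPTBN1 over ARPC5 was the pair with the smallest changes, at 0.9748 in testis, 1.67 in epididymis and 1.49 in ductus deferens libraries. Its log2 ratio changed by 0.78, 0.62 and -0.16 in the 3 comparisons, with exact permutation p = 0.227, 0.130 and 0.799. These values depend on the epididymis of bird 12, where the ratio was 0.261. Without it the change from the testis to the epididymis was 1.31 (exact permutation p = 0.00433) and that from the epididymis to the ductus deferens was -0.70 (exact permutation p = 0.0281). Without bird 14 the change from the testis to the ductus deferens was 0.89 (exact permutation p = 0.0397). In all, 18 changes of a ratio were tested without adjustment, and 15 had a p under 0.05. The ratios are built from the same 4 genes and the comparisons share libraries, so these tests are not independent and in part restate the fold changes above. Ratios of other genes were not examined, so this count has no background. With the birds as pairs, 11 of the 18 had a p under 0.05 in the exact sign-flip test. The other 4, the 3 changes of KRT19 over SPTBN1 and that of ARPC5 over CDH20 from the testis to the epididymis, had an exact sign-flip p = 0.0625, with 5 of 6 birds in 1 direction. KRT19 over SPTBN1 from the testis to the epididymis also missed 0.05 without bird 2 (exact permutation p = 0.0556).

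**Figure D4:**
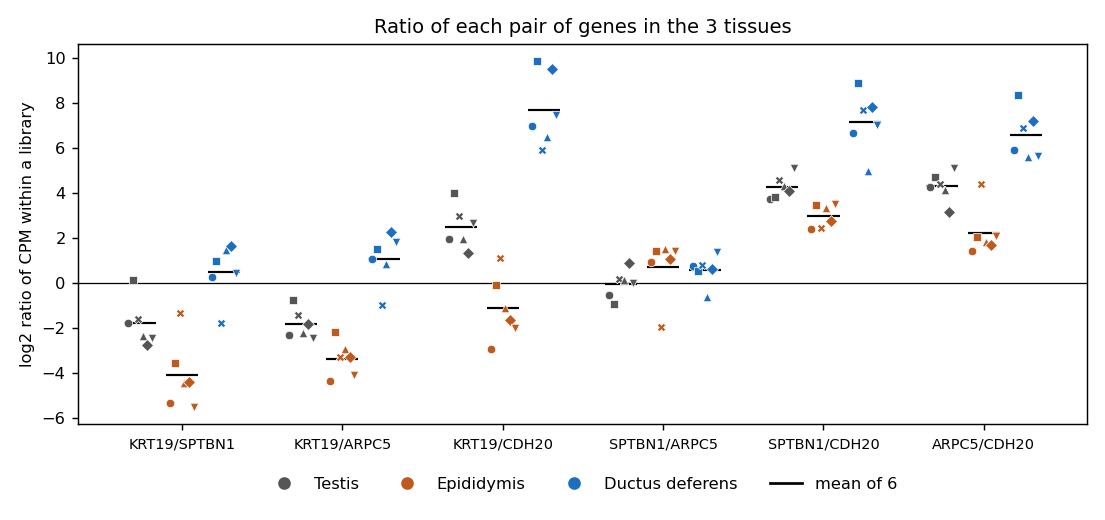
log2 ratio of CPM within each library for the 6 pairs of genes, by tissue, with symbols for the birds as in the plot of levels and lines at the mean of 6. KRT19 over CDH20 separated the tissues, with geometric mean ratios of 0.467 in epididymis, 5.59 in testis and 209 in ductus deferens libraries, and the epididymis of bird 12 lay apart from the other 5 in SPTBN1 over ARPC5 (0.261).

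The birds varied more in some of the genes than in others. ARPC5 had coefficients of variation of 27.1%, 28.1% and 23.9% in testis, epididymis and ductus deferens, each below the median of genes with a mean of at least 1 CPM (48.9%, 48.1% and 35.0%). For ARPC5 this held with each bird left out. KRT19 had 69.0% (epididymis) and 54.1% (ductus deferens), above the medians, and 37.1% in the testis, but these values depend on which birds are kept. Without bird 11 the variation of KRT19 was 8.74% in the testis, a value that depends on the TMM factor of bird 12. In the epididymis it was 47.6% without bird 11, below the median of 49.8% over the same 5 libraries, which include that of bird 12. With bird 12 left out instead, it was 80.1% in the epididymis, above a median of 28.0%. It was also above the median there with bird 2, 14, 15 or 16 left out. Without bird 12 it was 33.5% in the ductus deferens, below the median of 34.8%. CDH20 reached 71.6% in the ductus deferens, where its counts were lowest. SPTBN1 had 45.3% in the epididymis with bird 12 and 21.4% without it, and in the ductus deferens 23.8% with bird 14 and 12.4% without it.

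The counts of the transcripts assembled at each locus add up to the counts of the gene in every library. They come from an assembly of short reads, so that a share is an estimate of how reads were divided, and intervals and limits given for it cover counting error only. Permutation and sign-flip p-values for shares were not adjusted for the number of tests, and shares of a locus are not independent of each other. ARPC5 had a single transcript, ENSMGAT00000001620, with all 238300 counts. Tested among all 48523 transcripts, of which 15.6% were called, it was higher in the epididymis than the testis by 1.62 ± 0.28 on the log2 scale (edgeR, adjusted p = 0.00109), and this call was lost with the bird as a block (edgeR, adjusted p = 0.0237), unlike that of the gene. At the KRT19 locus the annotated transcript ENSMGAT00000003445 held 98.6% of the counts over the 18 libraries and the assembled transcript MSTRG.29734.2 held 1.39%. The share of MSTRG.29734.2 was between 0.147% and 2.66% in the testis and between 0.864% and 1.54% in the ductus deferens. In the epididymis it was 0 of 1293 counts in bird 12 (exact Clopper-Pearson 95% interval up to 0.285%) and between 1.38% and 2.22% in 4 birds. In bird 16 it was 80.1% (575 of 718 counts, exact Clopper-Pearson 95% interval from 77.0% to 82.9%). The epididymis of bird 16 was the library with the lowest KRT19 (8.49 CPM) of the 18. The mean share of MSTRG.29734.2 was 1.56% in testis, 14.5% in epididymis and 1.26% in ductus deferens libraries, and none of the 3 differences passed an exact permutation test (p = 0.652, 0.452 and 0.405 for the epididymis over the testis, the ductus deferens over the testis and the ductus deferens over the epididymis). Without the epididymis of bird 12 the ductus deferens was lower than the epididymis by 16.1 percentage points (exact permutation p = 0.0130), but the size of this difference rests on bird 16, without which, and with bird 12 kept, it was -0.13 points (exact permutation p = 0.786).

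At the SPTBN1 locus MSTRG.19745.1 held 94.0% and MSTRG.19745.2 held 5.97% of the counts. The share of MSTRG.19745.1 was between 97.9% and 99.5% in the 6 ductus deferens libraries. In the epididymis it was between 98.6% and 99.7% in 5 birds and 0 of 3283 counts in bird 12. In the testis it was 78.9%, 72.7%, 71.6% and 70.8% in birds 11, 14, 15 and 16, and 0 of 3567 and 0 of 6072 counts in birds 2 and 12, where all counts were given to MSTRG.19745.2. For these counts of 0 the exact Clopper-Pearson 95% interval reached 0.103% in the testis of bird 2 and 0.0607% in the testis of bird 12. It reached 0.112% in the epididymis of bird 12. The ductus deferens and the testis did not overlap, and their means, 98.6% and 49.0%, differed by 49.6 percentage points (exact permutation p = 0.00216, higher in 6 of 6 birds). Shares that do not overlap between these tissues were found for 9.11% of the 31285 transcripts examined. The epididymis and the testis differed by 33.6 points (exact permutation p = 0.167), and by 50.1 points without the epididymis of bird 12 (exact permutation p = 0.00649).

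MSTRG.19745.2 averaged a share of 50.7% ± 38.3 in the testis, against a ductus deferens share of 1.37% ± 0.553 (SD, n = 6). Its own counts were lower in the ductus deferens than in the testis by the test over all transcripts, with a log2 fold change of -2.70 ± 0.58 (edgeR, adjusted p = 0.00258, 25.2% of 45677 transcripts called), although the gene as a whole rose. With the bird as a block this call was lost (edgeR, adjusted p = 0.0447). The counts of MSTRG.19745.1, with 0 in 2 testis libraries, had a log2 fold change of 3.23 ± 1.52 (edgeR, adjusted p = 0.116) in the same comparison. The annotated transcript ENSMGAT00000002733 of this locus had no counts in any library, and MSTRG.19745.4 held 0.0267%.

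The CDH20 locus was divided among 4 transcripts, ENSMGAT00000005642 with 33.1%, MSTRG.30763.2 with 28.0%, MSTRG.30763.3 with 26.5% and MSTRG.30763.1 with 12.5% of the counts. In the ductus deferens MSTRG.30763.3 held all counts in 5 birds and 13.9% in bird 2. In the testis it held all counts in birds 2, 11, 15 and 16, while MSTRG.30763.2 held them all in bird 12 and MSTRG.30763.1 in bird 14. In the epididymis ENSMGAT00000005642 led in birds 11, 14 and 16 (72.8%, 85.4% and 65.3%), MSTRG.30763.2 in birds 2 and 12 (54.5% and 100%) and MSTRG.30763.3 in bird 15 (94.8%). The mean share of ENSMGAT00000005642 was 0% in the testis and 39.0% ± 39.5 in the epididymis (exact permutation p = 0.0152), but with the birds as pairs the p of the exact sign-flip test was 0.0625. MSTRG.30763.3 was higher in the ductus deferens than in the epididymis by 69.8 points (exact permutation p = 0.00433, higher in 6 of 6 birds). The tissues overlapped only between the epididymis of bird 15 (94.8%) and the ductus deferens of bird 2 (13.9%). The fewest counts, 53 in the ductus deferens of bird 11, give that share of 100% an exact 95% interval down to 93.3%.

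Such steps between libraries are frequent in the deposited transcript counts. Of the 27325 assembled transcripts at loci with at least 10 counts in each library, 39.3% held no counts in some library and more than 50% of the locus in another. Shares did not overlap in 7.01% of 28684 transcripts for the epididymis over the testis and in 0.716% of 27790 for the ductus deferens over the epididymis. For the transcripts of the 3 loci, the test of counts gave 1 call for the ductus deferens over the epididymis, ENSMGAT00000003445 of KRT19 (log2 fold change 4.85 ± 0.74, edgeR, adjusted p = 0.00431, 1.01% of 37795 transcripts called), which was lost with the bird as a block (edgeR, adjusted p = 0.0966). No share of the 3 loci was without overlap in these comparisons. The part of the assembly in the changes of shares was not tested.

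**Figure D5:**
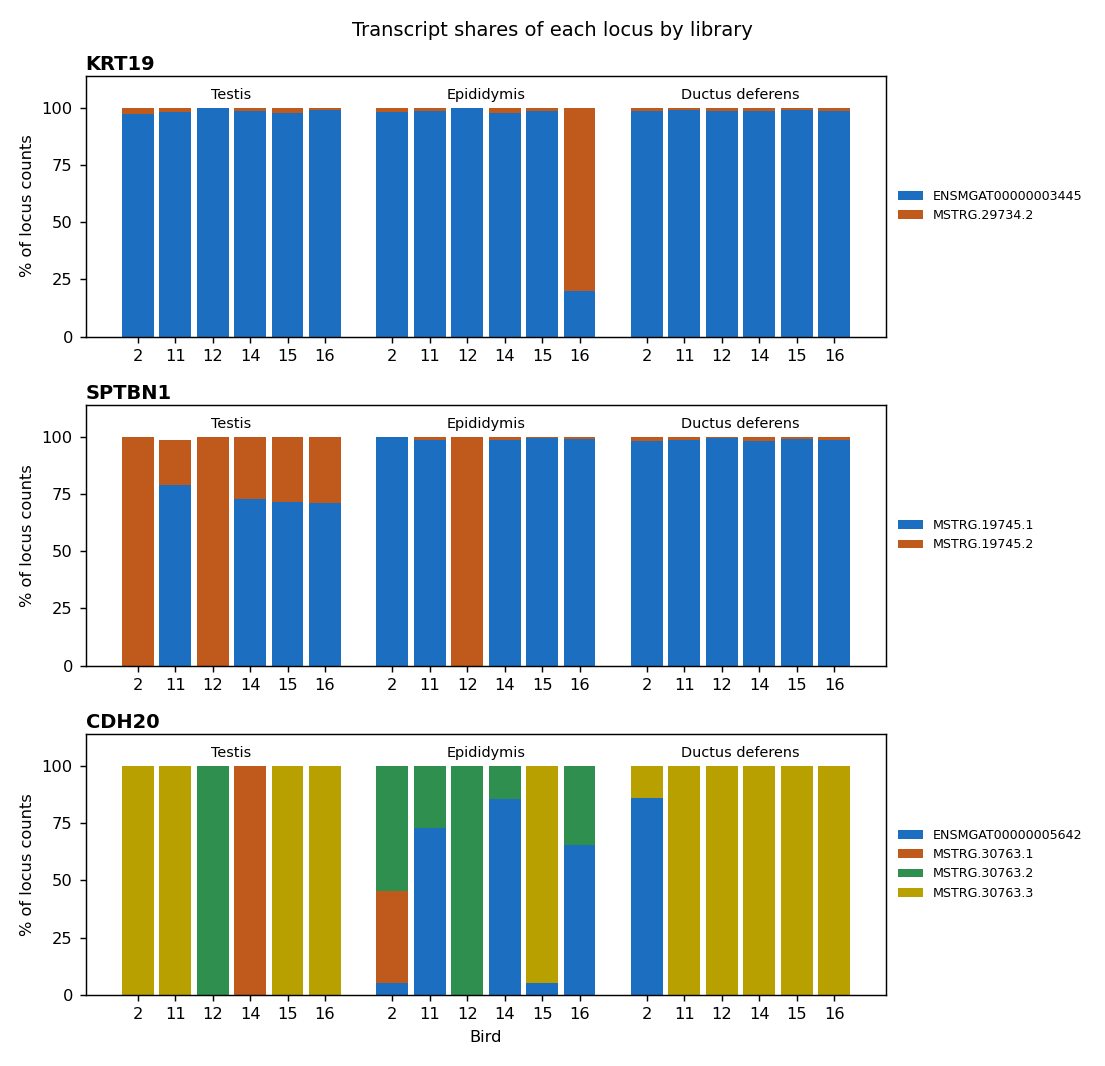
Share (%) of the counts of the KRT19, SPTBN1 and CDH20 loci given to each transcript, with 1 stacked bar per library and birds in columns. MSTRG.29734.2 reached 80.1% in the epididymis of bird 16, MSTRG.19745.2 held all SPTBN1 counts in the testis of birds 2 and 12 and in the epididymis of bird 12, and the CDH20 transcripts replaced each other between birds, mostly in the epididymis.

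Profiles most like those of the 4 genes were ranked by the root mean square difference of log2(CPM + 1), each profile centred on its own mean over the 18 libraries, among 30451 other genes. For ARPC5 the nearest of all genes was MAP1LC3A, a protein of autophagosome membranes, with a difference of 0.21 against a median of 1.22, at means of 69.8, 239 and 258 CPM in testis, epididymis and ductus deferens. AIFM1, a mitochondrial flavoprotein, was the next named gene (0.38). For SPTBN1 the nearest was MSTRG.14694, which has no name here (0.35), and ACAA2, a thiolase of fatty acid oxidation, was at 0.40, against a median of 1.58.

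KRT19 and CDH20 had less close neighbours. The profiles were centred but not scaled, so the difference also depends on how far a gene itself changes between libraries. The medians over all genes were larger for KRT19 and CDH20 as well. For KRT19 the nearest was MSTRG.29733, without a name here, with a difference of 0.91 and means of 2.22, 5.82 and 43.6 CPM. Its identifier directly precedes that of KRT19, and whether these loci share reads was not tested. The named genes nearest to KRT19 were SLC15A1, a transporter of small peptides (1.23), and SLC34A2, a transporter of phosphate (1.32), against a median of 2.51. For CDH20 the nearest was MSTRG.42747 (0.52), and the nearest named genes were SLC7A11, a cystine and glutamate exchanger (0.66), and ASS1, an enzyme of arginine synthesis (0.70), against a median of 1.91. The nearest named gene ranked 13 for KRT19, 1 for ARPC5 and 28 for CDH20, with 83 genes named in all.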

How the data were processed

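RNA of whole testis, epididymis and ductus deferens of 6 turkeys was sequenced as stranded, poly(A)-selected libraries. Per the labels the authors' tools were Trimmomatic for trimming, STAR for mapping and StringTie for the merged assembly of transcripts. The deposited values are raw counts of 56037 genes and 103847 transcripts as the authors made them, in whole numbers and not normalized. The counting tool and its use of strand are not given in the sources used here, so reads of overlapping or antisense loci could not be told apart. Columns were matched to tissue and bird through the sample titles.

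Each comparison used its 12 libraries in edgeR 4.0.16 (R 4.3.3) with TMM normalization, the edgeR filter on low counts and the robust quasi-likelihood test. A fold change has the SE |log2 fold change| / sqrt(F), and its 95% interval uses 10 residual degrees of freedom. Shares and ratios were compared by two-sided exact permutation over 924 assignments, or over 64 sign flips for paired birds (smallest p 0.03125). The same birds gave all tissues, so the bird pairs the libraries, and deviations of the same bird had a mean correlation of 0.017, 0.0066 and 0.082 in the 3 comparisons (30452 genes). P-values cover the spread between these birds only.

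On simulated counts with 200 changed genes the test called 65.0%, 66.0% and 72.0% of genes changed by 1.5 (log2) and 100% of those changed by 3, in the order epididymis over testis, ductus deferens over testis and ductus deferens over epididymis (28399, 27495 and 22583 genes). The simulation gave every gene the same dispersion, set no library apart and changed only genes above a limit of mean CPM. Its rates need not hold for genes that vary more between birds. Other tools were limma 3.58.1, DESeq2 1.42.0, Python 3.11.15, numpy 2.4.6, pandas 2.3.3, scipy 1.17.1 and matplotlib 3.10.9. Alternatives were DESeq2, limma on log2(CPM + 1), normalization by the upper quartile or library size, no filter, 1 fit over all tissues, birds as blocks, leaving out each bird or the epididymis of bird 12, and looser thresholds (adjusted p of 0.05, or any fold change).

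The 4 genes, the lists and the marker lists were chosen with earlier results of these data known. Genes were named by rule: the 4 genes, the listed genes of cytoskeleton and adhesion that could be paired with an identifier (9 named ones, and 0 of 103 in a wider list), for each of the 4 the nearest gene and the 2 nearest named genes by profile, and transcripts with at least 1% of a locus. Some genes that this rule names are not reported here. Symbols of 83 genes came from the study's supplementary tables and none was taken from position. Marker lists held 5 of 11 germ cell, 5 of 6 multiciliated, 2 of 3 absorptive and 1 of 8 smooth muscle genes with a paired symbol. Transcript lengths and sequences were not used here, so the planned test of the order per kilobase gave way to ratios of 2 genes, chosen after seeing the data.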

Additional observations from a re-analysis of the deposited data

Results flagged for a closer look

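Each of the 4 genes and each transcript share was examined in each tissue for a library far from the other 5 (Dixon's ratio above its 95% critical value for 6 values). This gave 11 flags in 36 groups. The critical value assumes normally distributed values, which shares held at 0% or 100% are not, so no chance level is given. Shares of a locus are also not independent of each other. KRT19 in the testis of bird 11 was at 26.5 CPM, a flag that depends on the TMM factors of birds 11 and 12. In the epididymis of bird 16 MSTRG.29734.2 held 80.1% and ENSMGAT00000003445 held 19.9% of KRT19. In the epididymis of bird 12 MSTRG.19745.1 held 0% and MSTRG.19745.2 held 100% of SPTBN1. At CDH20, MSTRG.30763.1 held 100% in the testis of bird 14 and 40.1% in the epididymis of bird 2, MSTRG.30763.2 held 100% in the testis of bird 12, and MSTRG.30763.3 held 94.8% in the epididymis of bird 15. In the ductus deferens of bird 2 ENSMGAT00000005642 held 86.1% and MSTRG.30763.3 held 13.9% of CDH20.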

How the results depend on the processing

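The calls of the 4 genes, and the absence of a call where there was none, held in all 164 refits of their log2 fold changes, and 7 of these refits, of values not called, turned the sign. For SPTBN1 in the ductus deferens over the epididymis it was 0.045 with the upper quartile, 0.079 with limma and 0.055 with the bird as a replicate block, and leaving out a bird or the epididymis of bird 12 gave -0.23 to 0.15. For CDH20 in the ductus deferens over the testis leaving out a bird gave -0.47 to 0.32. SEPT4 in the ductus deferens over the epididymis, not called, was -0.067 with library size alone and -0.17 to 0.36 with a bird or library left out. Library size alone in place of TMM moved the median log2 fold change of all genes from -0.30 to -0.56, from -0.59 to -0.90 and from -0.05 to -0.18.

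The number of genes called for the epididymis over the testis was 6262 with the replicate block, and for the ductus deferens over the epididymis it was 626 with the block, 2227 with DESeq2, 2009 with an adjusted p under 0.05, and 669 (without bird 15) to 2463 (without the epididymis of bird 12) with a bird or library left out.

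For transcript counts the alternatives were chosen after seeing the data. Their log2 fold changes with the replicate block follow, with the value without the block in brackets. For the epididymis over the testis they were -0.19 (0.17) for ENSMGAT00000003445 and 1.61 (1.62) for ENSMGAT00000001620, the latter with a block adjusted p = 0.0237 (edgeR). For the ductus deferens over the testis they were -2.55 (-2.70) for MSTRG.19745.2 and 0.38 (-0.07) for MSTRG.30763.3. For the ductus deferens over the epididymis ENSMGAT00000003445 was at 5.11 (4.85), with a block adjusted p = 0.0966 (edgeR). In that comparison MSTRG.19745.1 was at 0.28 (-0.02), MSTRG.19745.2 at 0.10 (-1.78) and MSTRG.30763.3 at 8.72 (-1.92). The last was called in neither fit (edgeR, adjusted p = 0.315 with the block and 0.944 without it). Without the epididymis of bird 12, MSTRG.19745.2 was at -2.96 for the epididymis over the testis (edgeR, adjusted p = 0.00579) and at 0.37 for the ductus deferens over the epididymis. With that library it was at -0.95 (edgeR, adjusted p = 0.523) and -1.78 (edgeR, adjusted p = 0.611).

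Differences of shares, in percentage points, ranged as follows with a bird or library left out. For the epididymis over the testis they were -15.8 to 0.33 (ENSMGAT00000003445), -0.33 to 15.8 (MSTRG.29734.2), 20.4 to 50.1 (MSTRG.19745.1), -49.9 to -20.1 (MSTRG.19745.2), -20.0 to 8.03 (MSTRG.30763.1), 9.53 to 26.2 (MSTRG.30763.2) and -61.0 to -41.0 (MSTRG.30763.3). For the ductus deferens over the epididymis they were 0.13 to 16.1 (ENSMGAT00000003445), -16.1 to -0.13 (MSTRG.29734.2), -0.69 to 19.5 (MSTRG.19745.1), -19.4 to 0.74 (MSTRG.19745.2) and -45.7 to -12.5 (ENSMGAT00000005642). The small values of KRT19 transcripts are those without bird 16. The exact sign-flip test, with the birds as a replicate block, gave p = 0.0625 for 39.0 points of ENSMGAT00000005642 (epididymis over testis) and -38.5 points of MSTRG.30763.2 (ductus deferens over epididymis). The log2 ratio of SPTBN1 to ARPC5 between the ducts ranged from -0.74 to 0.23. The order of mean CPM in the testis changed without bird 15, where ARPC5 came first, and 1 of 5 libraries had that order, against 4 libraries in the order over all birds. The cause of these changes was not tested. The lower counts of CDH20 outside the epididymis widen the counting intervals of its shares, which do not cover the steps between libraries. In the epididymis, with 598 to 8152 counts, the share of MSTRG.30763.2 still ran from 0% to 100%. The number of 6 birds limits every test.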
